A study of Mus musculus with 6 samples.

Results

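Measured here are 6 genes grouped under the heading of postsynaptic scaffolds and receptors: Homer1, Homer2, Homer3, Insyn2b, Gsg1l and Ankrd63. They were read in whole ovaries of FORKO mice, which carry a deletion of the receptor for follicle-stimulating hormone (FSH), and of wild-type (WT) mice. The arrays hold 13 probe sets that name one of these genes and no other, of 45101 probe sets in all: 6 for Homer1, 3 for Homer2 and 1 for each of the others. Homer2, Insyn2b, Gsg1l and Ankrd63 were picked because they stood among the largest falls in the FORKO against WT comparison of these same arrays, and Homer1 and Homer3 were added as the relatives of Homer2. The values of the 6 genes are therefore given as a description, with no test. Both groups were 8-month-old females bred from heterozygotes on the 129T2 svEmsJ background; the FORKO group lacked every variant of the receptor and the WT group carried it. Each group had 3 samples, the labels call them biological replicates, both ovaries were pooled for a sample, and each sample had its own Affymetrix Mouse Genome 430 2.0 array. The number of mice behind a sample is not stated, so all spreads and p-values below describe these samples only, and 3 arrays a group limit how precise any value is. The genotype labels of the FORKO samples conflict with their free-text description, which speaks of wild-type mice.

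Homer proteins are scaffolds. Their front domain grips short proline-rich stretches in metabotropic glutamate receptors, Shank proteins, inositol trisphosphate receptors and ryanodine receptors, and their coiled coils join these partners into complexes that couple surface receptors to calcium stores. They are best known in neurons and muscle, and they are also made elsewhere. Gsg1l is a claudin-related auxiliary protein of AMPA-type glutamate receptors that changes how fast the receptor recovers from desensitisation. Insyn2b is the relative of Insyn2a, a protein of inhibitory synapses. Ankrd63 is an ankyrin-repeat protein.

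Signals are MAS5 array intensities scaled to one trimmed mean per array, and changes are differences in log2(signal + 5.73), FORKO minus WT, a scale that shrinks the changes of dim probe sets. Probe sets with a mean scaled signal below 20.4 are called dim and were not tested. The deposited trimmed means were 80.6 to 98.4. Log2 signals correlated at 0.966 to 0.969 across probe sets between WT arrays, 0.976 between FORKO replicates 2 and 3, and 0.934 and 0.936 between FORKO replicate 1 and these, so FORKO replicate 1 stands apart and values without it are given below. The single probe set of Fshr, the deleted gene, read 1.2, 11.2 and 11.7 on the FORKO arrays, against 99.6, 59.4 and 118.8 on the WT arrays (log2 change -2.90 ± 0.39, SE; limma adjusted p = 0.0101, and 0.0525 and 0.0598 without WT replicates 1 and 3). Whether it lies inside the deleted stretch is not stated. Of 14 granulosa cell markers with a probe set, 13 were above the dim limit. The granulosa cell regulator Foxl2 read 819.2 to 872.0 in FORKO and 625.9 to 809.8 in WT ovaries. Not all were bright: Amh was dim, at 0.8 to 1.2 on all arrays. Inhba read 54.2 in FORKO replicate 1, beside 3866.9 and 3755.9 on the other FORKO arrays.

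Promoter windows, 250 bases before to 50 after a gene start, are held for 4 of the 6 genes in RefSeq on GRCm38.p6. Homer1 and Homer2 have a pair of starts each. Those of Homer2 and Ankrd63 are shown because these genes were lower in FORKO ovaries. Of the relatives Homer1 and Homer3, which did not fall in this way, only the first Homer1 window is shown. The windows left out, the second of Homer1 and that of Homer3, held none of the letters capitalised below. FSH acts through cyclic AMP, whose response element (CRE) has the core TGACG, so matches to TGACG or its reverse complement and to the TATA box, TATAAA, are in capitals.
Homer2 first start, chr7:81706876-81707175, minus strand: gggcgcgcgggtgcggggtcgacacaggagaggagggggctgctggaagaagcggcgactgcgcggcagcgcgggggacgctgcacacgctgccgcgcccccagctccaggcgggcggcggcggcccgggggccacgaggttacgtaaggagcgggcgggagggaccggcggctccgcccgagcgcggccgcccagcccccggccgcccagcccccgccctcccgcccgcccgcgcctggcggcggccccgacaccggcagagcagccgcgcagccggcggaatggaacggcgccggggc
Homer2 second start, chr7:81692916-81693215, minus strand: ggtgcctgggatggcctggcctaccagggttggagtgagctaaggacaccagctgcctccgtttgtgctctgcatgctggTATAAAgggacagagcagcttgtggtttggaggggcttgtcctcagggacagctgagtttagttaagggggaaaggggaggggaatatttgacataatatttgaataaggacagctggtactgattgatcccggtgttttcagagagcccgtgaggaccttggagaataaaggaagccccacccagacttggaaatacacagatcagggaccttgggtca
Ankrd63, chr2:118703914-118704213, minus strand: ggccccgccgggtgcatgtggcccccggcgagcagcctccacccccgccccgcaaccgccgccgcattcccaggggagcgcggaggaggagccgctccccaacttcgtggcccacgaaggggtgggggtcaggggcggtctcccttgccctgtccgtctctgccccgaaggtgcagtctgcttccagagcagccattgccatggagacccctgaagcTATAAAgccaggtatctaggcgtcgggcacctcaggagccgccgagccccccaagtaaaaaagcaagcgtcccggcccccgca
Homer1 first start, chr13:93303507-93303806, plus strand: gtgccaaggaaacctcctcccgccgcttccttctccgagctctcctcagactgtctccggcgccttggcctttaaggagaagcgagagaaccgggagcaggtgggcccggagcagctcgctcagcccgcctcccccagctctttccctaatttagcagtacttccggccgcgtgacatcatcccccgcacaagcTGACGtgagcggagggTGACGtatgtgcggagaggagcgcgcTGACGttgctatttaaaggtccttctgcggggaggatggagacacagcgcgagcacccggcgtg

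The first Homer1 window held 3 matches to TGACG, all within 60 bases before the gene start, at -56, -40 and -14. None of the other 5 member windows, those of Homer2, Homer3 and Ankrd63 included, held these letters on either strand, and 20.8% of all 32851 promoter windows did. The full palindrome TGACGTCA (1.79% of all windows), CAAGGTCA, a site of NR5A nuclear receptors (1.56%), and the forkhead core TGTTTA (13.4%) had no match in any of the 6 windows. TATAAA, present in 13.6% of all windows, had 1 match in Ankrd63, at -33, and 1 in the second Homer2 window, at -170. The first Homer2 window was 82.3% G and C, against a median of 52.7% over all windows, and held 8 matches to GGGCGG, the GC box of SP1 (35.7% of all windows hold it). This was not particular to Homer2: the Homer3 and Ankrd63 windows, both 69.7% G and C, held 5 and 2 matches. The first Homer1 window, at 63.0%, held none, and neither did the second windows of Homer1 and Homer2. All motifs were searched on both strands, and each TGACGTCA contains TGACG. A match is a run of letters and not a measured site, and its absence says only that these letters are not in this window.

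Homer2, on chromosome 7, was lower in FORKO ovaries on both of its probe sets that were above the dim limit. Probe set 1424367_a_at read 28.2, 39.3 and 44.6 in FORKO replicates 1, 2 and 3, against 294.6, 136.9 and 152.0 in WT replicates 1, 2 and 3. Every FORKO array lay below every WT array, and the FORKO mean of 37.4 ± 8.35 was 19.2% of the WT mean of 194.5 ± 87.0 (SD, n = 3 each). Its log2 change was -2.15 ± 0.29 (SE), and -1.99 without FORKO replicate 1. The bright WT replicate 1 set much of the WT spread. In whole ovary, fewer cells of a type and less RNA per cell cannot be told apart, here and for all values below.

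Probe set 1457671_at of Homer2 gave a narrower WT range. It read 7.9, 13.7 and 26.0 in FORKO ovaries, against 58.2, 58.5 and 66.4 in WT ovaries, again with no overlap. The FORKO mean was 15.8 ± 9.25 and the WT mean 61.0 ± 4.66 (SD, n = 3 each), a log2 change of -1.72 ± 0.31 (SE), or -1.43 without FORKO replicate 1. WT replicate 1, so high on the first probe set, was level with WT replicate 2 here. The third Homer2 probe set, 1436110_at, was dim on all arrays, with 2.6 to 10.6 in FORKO and 10.1 to 14.3 in WT ovaries, and its groups overlapped.

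Homer1, on chromosome 13, did not follow Homer2. Its brightest probe set, 1437363_at, read 199.0, 223.7 and 201.7 in FORKO ovaries, against 148.7, 180.2 and 177.1 in WT ovaries. The FORKO arrays were all above the WT arrays, but the log2 change was 0.30 ± 0.17 (SE), and it was 0.21 to 0.47 over the alternatives. The other Homer1 probe sets above the dim limit overlapped between groups. Probe set 1436387_at read 104.1, 79.8 and 116.4 in FORKO and 105.4, 84.9 and 89.5 in WT ovaries (log2 change 0.09 ± 0.20, SE). Probe set 1439662_at read 42.5, 39.4 and 52.5 in FORKO and 43.1, 29.5 and 38.6 in WT ovaries (log2 change 0.25 ± 0.22, SE). The remaining 3 Homer1 probe sets were dim, with means of 3.98 to 17.5 over all arrays, and overlapped between groups. The short Homer1 form that neurons induce could not be matched to a probe set here.

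Homer3, on chromosome 8, was near the dim limit. It read 17.5, 27.9 and 27.5 in FORKO ovaries, against 27.5, 28.8 and 34.8 in WT ovaries, with a log2 change of -0.28 ± 0.25 (SE). The low reading was that of FORKO replicate 1, and without it the log2 change was -0.11. Of the 3 Homer genes, Homer2 thus had a FORKO mean at 19.2% of the WT mean on its brightest probe set, while Homer1 and Homer3 differed between groups by 0.30 or less on the log2 scale on the probe sets above the dim limit. Levels of different probe sets cannot be set against each other, so which Homer gene is the most abundant in the ovary is not given.

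**Figure D1:**
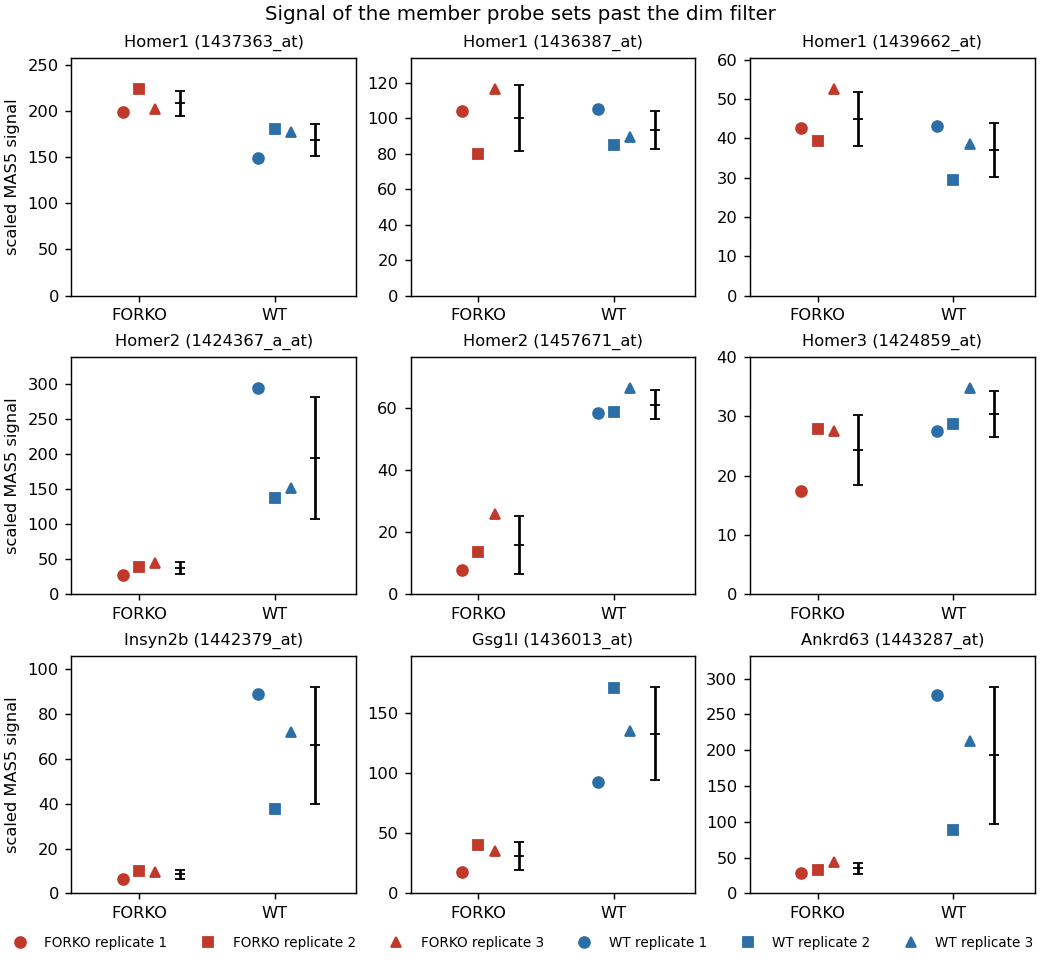
Scaled MAS5 signal (linear axis from 0) of the 9 member probe sets above the dim limit, with 1 point per array and, in black, mean ± SD (n = 3). FORKO points lie below all WT points for both Homer2 probe sets, Insyn2b, Gsg1l and Ankrd63, and above them for Homer1 probe set 1437363_at; the other Homer1 probe sets and Homer3 overlap.

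Insyn2b, on chromosome 11, was also lower on all FORKO arrays. Its probe set, 1442379_at, read 6.3, 9.8 and 9.6 in FORKO ovaries, against 88.9, 37.7 and 72.0 in WT ovaries. The FORKO mean of 8.57 ± 1.93 was 12.9% of the WT mean of 66.2 ± 26.1 (SD, n = 3 each), with a log2 change of -2.27 ± 0.31 (SE) and -2.15 without FORKO replicate 1. All FORKO values are below the dim limit, so the size depends on the pseudocount: it was -2.75 with a pseudocount of 1 and -1.69 with 16. Its relative Insyn2a read 384.9 ± 49.6 in FORKO and 419.5 ± 100.7 in WT ovaries (SD, n = 3 each; log2 change -0.10 ± 0.20, SE; limma adjusted p = 0.864) and did not pass.

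Gsg1l, on chromosome 7, read 18.0, 40.3 and 35.1 in FORKO ovaries, against 93.0, 171.0 and 135.1 in WT ovaries. No FORKO array reached any WT array. The means were 31.1 ± 11.6 in FORKO and 133.0 ± 39.1 in WT ovaries (SD, n = 3 each), a log2 change of -1.93 ± 0.30 (SE), or -1.64 without FORKO replicate 1, the lowest array. Gsg1, the gene after which Gsg1l is named, was dim in both groups, with means of 2.68 and 4.58 in FORKO and WT ovaries.

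Ankrd63, on chromosome 2, read 28.7, 32.1 and 44.0 in FORKO ovaries, against 277.3, 89.0 and 212.7 in WT ovaries. The WT arrays spread over a wide range, yet the lowest of them, replicate 2, was above all FORKO arrays. The FORKO mean of 35.0 ± 8.04 was 18.1% of the WT mean of 193.0 ± 95.7 (SD, n = 3 each), with a log2 change of -2.17 ± 0.36 (SE), or -2.05 without FORKO replicate 1.

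Of the 9 member probe sets above the dim limit, 5 were called by limma (adjusted p under 0.05), all lower in FORKO, beside 1.65% of all 22506 tested probe sets, with 0.595% lower and 1.06% higher. With the replicate number as a block, 691 in place of 372 probe sets were called in all. FORKO was below WT on all arrays for the same number of members, 5, where 10.4% of all tested probe sets showed this and 20.4% had no overlap in either direction. As the members were picked by this contrast, these counts are no test of them and nothing is read from them. Insyn2b and Homer2 probe set 1457671_at, with FORKO means of 8.57 and 15.8, were above the dim limit only because WT was high. Among the named genes that passed as lower with groups that did not overlap, Insyn2b, Ankrd63, Homer2 and Gsg1l took ranks 10, 11, 12 and 14 by size. The choice took the first 15: Epha3 at rank 15 had a log2 change of -1.92 and Rfpl4 at rank 16 had -1.91, so Gsg1l at -1.93 was close to the limit.

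**Figure D2:**
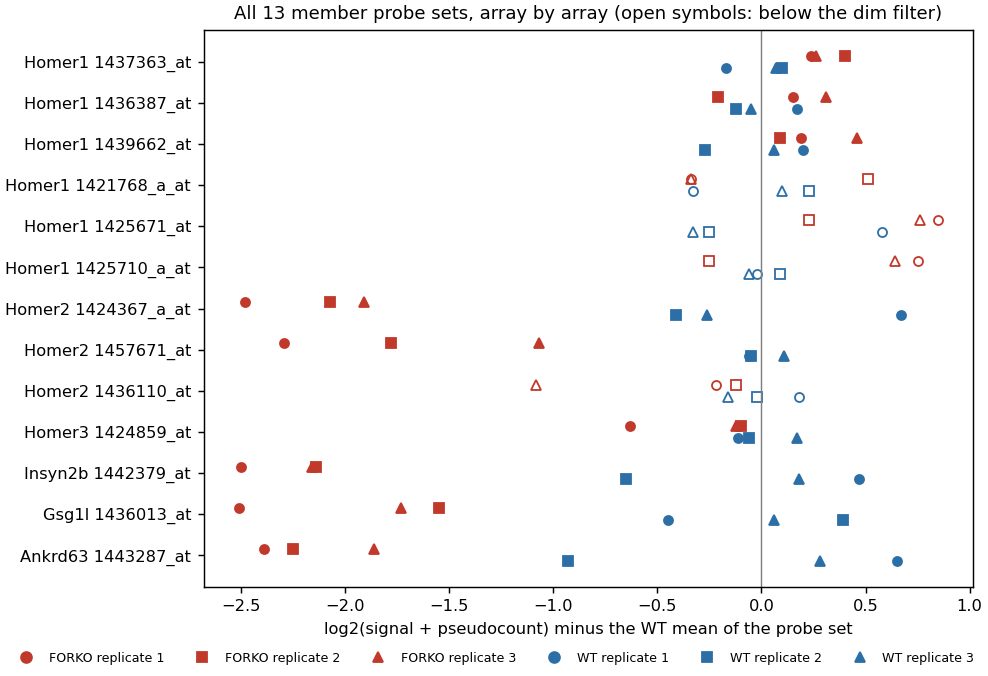
Log2(signal + 5.73) on each array minus the WT mean of the same probe set, for all 13 member probe sets; open symbols are dim probe sets. FORKO arrays lie between -2.51 and -1.07 for both Homer2 probe sets above the dim limit, Insyn2b, Gsg1l and Ankrd63, while all readings of Homer1 and Homer3 lie within 0.85 of 0.

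The genes that were lower in FORKO ovaries did not share one order among the WT arrays. Homer2 probe set 1424367_a_at, Insyn2b and Ankrd63 were all highest in WT replicate 1, next in replicate 3 and lowest in replicate 2. Relative to their own WT means these arrays stood at 0.65, 0.28 and -0.93 on the log2 scale for Ankrd63, and at 0.47, 0.18 and -0.65 for Insyn2b. Gsg1l ran the other way, with -0.45 in WT replicate 1, 0.06 in replicate 3 and 0.39 in replicate 2. On the FORKO side, replicate 1 had the lowest reading of Homer2 on both probe sets, of Homer3, Insyn2b, Gsg1l and Ankrd63. The lowering against WT was also there in FORKO replicates 2 and 3, where Ankrd63 stood at -2.25 and -1.86 and Gsg1l at -1.55 and -1.73.

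**Figure D3:**
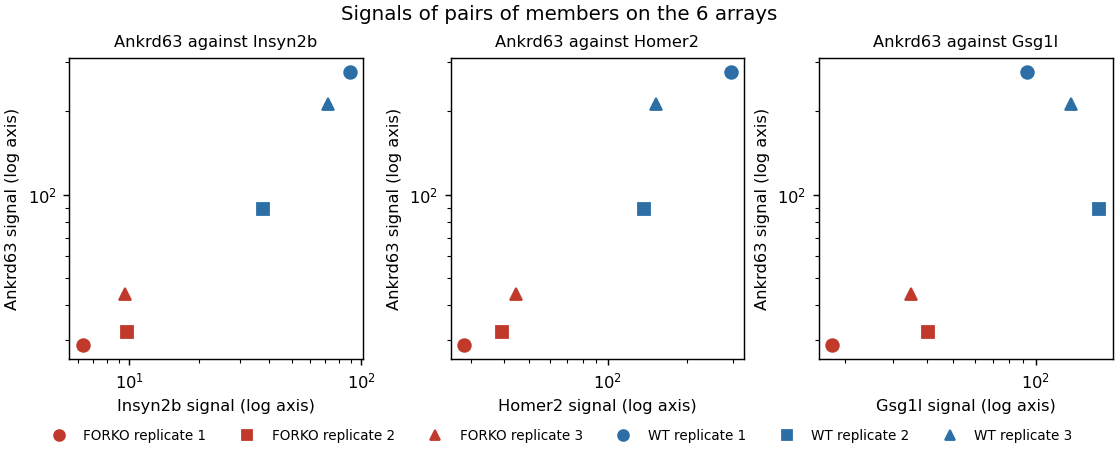
Scaled signal of Ankrd63 against that of Insyn2b, Homer2 (1424367_a_at) and Gsg1l on the 6 arrays (both axes logarithmic). The WT arrays order alike for Ankrd63, Insyn2b and Homer2, and in reverse for Gsg1l, which is highest at 171.0 in WT replicate 2, where Ankrd63 is lowest at 89.0.

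Other genes were ranked by the Pearson correlation of their log2 signals with each member over the 6 arrays, among 10844 genes. Each member stood by its brightest probe set. Both groups enter, so a gene that differs between groups tends to score high, and the ranks are a description. Depending on the member, 1.01% (Homer1) to 3.97% (Gsg1l) of these genes had r above 0.9. Nearest to Gsg1l was Adcyap1, which encodes the neuropeptide PACAP (r = 0.998 over 6 arrays). Adcyap1 read 0.3, 26.3 and 18.4 in FORKO ovaries, against 158.6, 528.5 and 295.4 in WT ovaries, with the same order of WT arrays as Gsg1l. Next came Mcm7, a replication helicase subunit, Ndufs4, a subunit of respiratory complex I, Acaca, which makes malonyl-CoA, and Ccz1 (r = 0.992 to 0.996). Their log2 changes were -0.48, -0.47, -0.19 and -0.39, much smaller than that of Gsg1l.

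Nearest to Insyn2b and second nearest to Ankrd63 was Slc40a1, the iron exporter ferroportin (r = 0.993 with each over 6 arrays), which read 530.5, 559.6 and 554.5 in FORKO and 864.5, 674.7 and 792.5 in WT ovaries. Fam169a was on both lists as well, with 25.1 to 27.8 in FORKO and 57.8 to 115.8 in WT ovaries. Insyn2b's list further held the transcription factor gene Dach1, Tmem191c and the claudin gene Cldn1 (log2 changes -1.66, -0.86 and -1.48). Ankrd63's list held Usp39, Dhrs3, which reduces retinal, and Metrn (log2 changes -0.25, -0.69 and -0.88). Nearest to Homer2 probe set 1424367_a_at were Cdk13, Bcar3, Nlrp14, Zp2 and U2af1 (r = 0.986 to 0.991), of which Nlrp14 and the zona pellucida gene Zp2 are made by oocytes. Homer2 probe set 1457671_at was not ranked. It correlated with 1424367_a_at at 0.92 over 6 arrays, and at 0.36 with the group means removed. Zp2 read 71.7, 83.5 and 92.9 in FORKO and 239.6, 199.0 and 192.2 in WT ovaries. For Homer1 the list was Zfp846, Stard3nl, Stard13, Tmem216 and Morc2a (log2 changes 0.32 to 0.54), and for Homer3 it was Tk1, Psme4, Unc45a, Hic1 and Zfp983 (-0.58 to -0.19).

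Whether other postsynaptic genes differed was asked with 5 gene lists that held 121 genes besides the 6 described above. Of these, 108 had a probe set with 1 symbol and 50 were above the dim limit. With the brightest probe set standing for each gene, 1 of the 50 rose, none fell and 49 did not pass, which is 2.00%, beside 2.14% of all 11199 genes tested (1.30% higher and 0.839% lower). With the replicate block it was again 1 of the 50, Gria3 (adjusted p = 0.0284), beside 3.98% of all genes. At an unadjusted p under 0.05, 12 of the 50 passed, beside 16.8% of all genes. Their median log2 change was 0.05, against -0.02 for all genes. The 13 others had no such probe set and were not analysed here.

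The gene that rose was Gria3, a pore-forming subunit of AMPA-type glutamate receptors, the receptors that Gsg1l accompanies. Probe set 1420563_at of Gria3 read 96.8, 58.9 and 70.1 in FORKO ovaries, against 12.7, 17.5 and 28.2 in WT ovaries. All FORKO arrays lay above all WT arrays (log2 change 1.71 ± 0.28, SE; limma adjusted p = 0.0202). Its second probe set, 1434728_at, read 59.8, 51.6 and 60.9 in FORKO and 19.1, 11.6 and 24.0 in WT ovaries (log2 change 1.43 ± 0.25, SE; limma adjusted p = 0.0260). Both WT means, 19.4 and 18.2, were below the dim limit, so these probe sets were tested only because FORKO was high, and the size depends on the pseudocount: the log2 change was 1.94 and 1.66 with a pseudocount of 1, and 1.37 and 1.12 with 16. The adjusted p of the first probe set was 0.0666 without FORKO replicate 3, 0.0764 without WT replicate 1 and 0.0981 without WT replicate 2; it was 0.0101 to 0.0981 over all alternatives. The second probe set kept its direction and had an adjusted p of 0.0147 to 0.0956, past the threshold without FORKO replicate 1 and short of it without each of the other arrays in turn. Of the other 8 AMPA receptor and auxiliary genes above the dim limit none passed (3 of the 9 were at an unadjusted p under 0.05 in limma). Gria4, another pore subunit, read 33.0 ± 4.44 in FORKO and 13.1 ± 3.20 in WT ovaries (SD, n = 3 each; limma adjusted p = 0.0842) and passed without FORKO replicate 1 (adjusted p = 0.0494), a fit in which 4.80% of all genes passed. Its WT mean was also below the dim limit, so Gria4 too was tested only because FORKO was high.

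Dlgap1 encodes a scaffold that sits between the PSD-95 family and Shank, and Shank in turn binds Homer. Its probe sets above the dim limit differed in the size of the change and in the call, but not in direction. The one that stands for the gene, 1453027_at, read 38.7, 25.8 and 39.9 in FORKO ovaries, against 49.1, 52.7 and 55.5 in WT ovaries, and did not pass (log2 change -0.54 ± 0.22, SE; limma adjusted p = 0.289). Probe set 1436076_at, singled out after its values were seen, read 16.3, 16.5 and 9.6 in FORKO and 91.6, 46.5 and 69.7 in WT ovaries and fell (log2 change -1.89 ± 0.28, SE; limma adjusted p = 0.0148). All its FORKO readings were below the dim limit, so it was tested only because WT was high, and its log2 change was -2.20 with a pseudocount of 1 and -1.47 with 16. Both probe sets were lower on all FORKO arrays. So were the dim probe sets 1443508_at and 1429105_at (log2 changes -1.11 and -0.93), while the other dim probe sets overlapped between groups. The call of 1436076_at was lost without WT replicate 1 (adjusted p = 0.0697) and without WT replicate 3 (0.0759). Counting all 89 tested probe sets of the listed genes, 2 rose, both of Gria3, 1 fell, that of Dlgap1, and 86 did not pass (3.37% called, beside 1.65% of all probe sets).

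**Figure D4:**
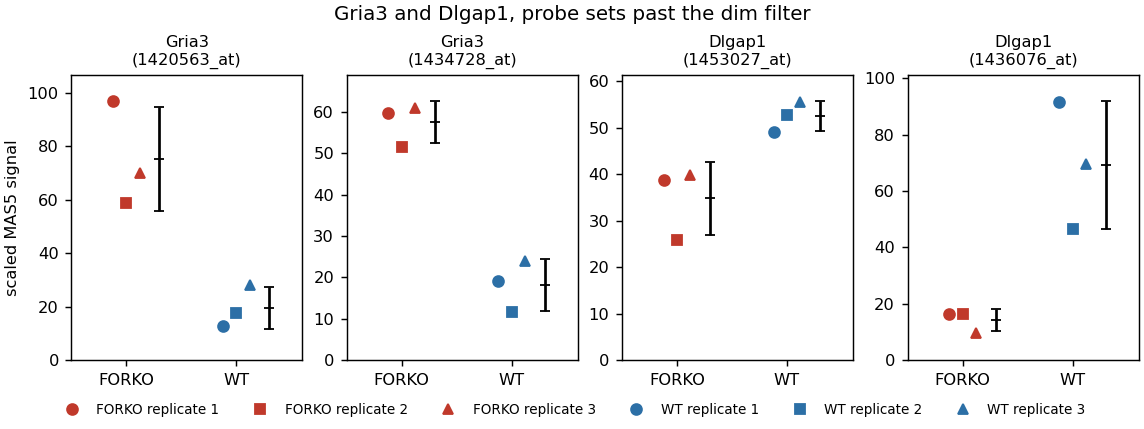
Scaled MAS5 signal (linear axis from 0) of the Gria3 and Dlgap1 probe sets above the dim limit, with 1 point per array and mean ± SD (n = 3) in black. Both Gria3 probe sets are higher on every FORKO array, and both Dlgap1 probe sets lower, with the wider gap for 1436076_at (14.1 in FORKO and 69.3 in WT ovaries on average).

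The known partners of Homer proteins did not pass. Of 15 tested partner genes none passed, 8 had a positive and 7 a negative log2 change, and their median was 0.04, with 4 at an unadjusted p under 0.05 in limma. The largest were Nfatc2, a calcium-regulated transcription factor, with 37.9 ± 11.4 in FORKO and 14.9 ± 4.42 in WT ovaries, and Plcb1, a phospholipase that makes inositol trisphosphate, with 151.9 ± 101.9 in FORKO and 78.2 ± 7.85 in WT ovaries (SD, n = 3 each; limma adjusted p = 0.107 and 0.391). The WT mean of Nfatc2 was below the dim limit, so Nfatc2 was tested only because FORKO was high. Its log2 change was 1.29 with a pseudocount of 1 and 0.79 with 16. FORKO replicate 1 alone was high for Plcb1, at 269.4 beside 98.5 and 87.9 on the other FORKO arrays. Without that array the log2 change of Plcb1 was 0.24 in place of 0.73. The calcium store channel Itpr2 read 138.6 ± 45.7 in FORKO and 162.0 ± 14.2 in WT ovaries, and the scaffold Shank3 read 32.1 ± 10.8 in FORKO and 31.6 ± 12.7 in WT ovaries (limma adjusted p = 0.689 and 0.974). The glutamate receptor Grm5 and the ryanodine receptors Ryr1, Ryr2 and Ryr3 were dim.

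None of 13 tested excitatory scaffold genes passed on the probe set that stands for the gene (median log2 change 0.10; 3 at an unadjusted p under 0.05 in limma). Grip1, which anchors AMPA receptors, read 36.8 ± 16.5 in FORKO and 12.9 ± 4.63 in WT ovaries (SD, n = 3 each; limma adjusted p = 0.138). The WT mean of Grip1 was below the dim limit, so Grip1 was tested only because FORKO was high. Its log2 change was 1.42 with a pseudocount of 1 and 0.84 with 16. Of the NMDA, kainate and delta receptor genes 3 were tested and none passed (1 at an unadjusted p under 0.05 in limma). Grik3, a kainate receptor subunit, read 75.4 ± 20.9 in FORKO and 150.9 ± 24.4 in WT ovaries (limma adjusted p = 0.0831, and 0.0457 with arrays scaled to the same median), and Neto1 read 46.4 ± 4.31 in FORKO and 39.6 ± 5.00 in WT ovaries (0.708). None of 10 tested inhibitory genes passed (median log2 change 0.05; 1 at an unadjusted p under 0.05 in limma). Gabrb1, a subunit of the GABA-A receptor, read 22.4 ± 6.55 in FORKO and 53.2 ± 24.6 in WT ovaries (0.207), and Gabrb2 read 1.0, 41.0 and 38.7 in FORKO and 40.8, 32.4 and 44.8 in WT ovaries (0.583). Without FORKO replicate 1 the log2 change of Gabrb2 was 0.03. In that fit Dag1, which encodes dystroglycan, passed (limma adjusted p = 0.00466); it read 818.6, 1606.8 and 1828.4 in FORKO ovaries, against 866.2, 898.6 and 960.9 in WT ovaries.

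**Figure D5:**
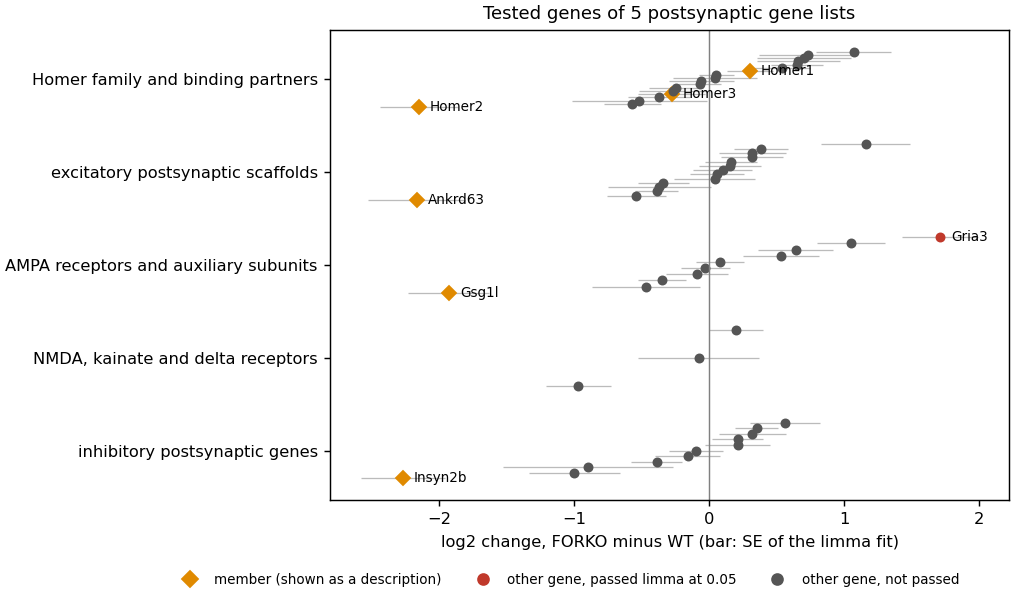
Log2 change, FORKO minus WT, of each tested gene of the 5 postsynaptic lists, with its SE from the limma fit; diamonds are the 6 genes described first and the red point is Gria3, which passed at an adjusted p of 0.05. Homer2, Ankrd63, Gsg1l and Insyn2b lie at -2.15, -2.17, -1.93 and -2.27, while Gria3 lies at 1.71 and Grik3, a kainate receptor subunit, at -0.97.

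Markers of other cell types are given beside these values. A summed signal is set mostly by the brightest markers of its list, so it need not show what most of the markers did. Of 20 neuron markers 6 were above the dim limit and none passed (1 at an unadjusted p under 0.05 in limma), and their summed signal was 343.9 to 443.0 in FORKO and 297.2 to 391.0 in WT ovaries. The synaptic vesicle gene Snap25 read 0.6 to 5.5 in FORKO and 0.4 to 2.1 in WT ovaries, near 0 on all arrays, and the neuronal genes Stmn2 and Elavl4 stayed at 11.6 or less. The 6 above the dim limit had 3 positive and 3 negative log2 changes, with a median of -0.06. Of these, Map2, Uchl1, Syt1, Tubb3 and Syp read 80.7, 41.3, 36.7, 17.4 and 18.1 in FORKO ovaries on average. Their WT means were 74.5, 45.7, 33.2, 26.4 and 23.6. Rbfox3, a splicing regulator of mature neurons, read 40.1, 136.5 and 124.9 in FORKO and 30.2, 23.7 and 38.8 in WT ovaries. Its groups did not overlap; it did not pass (log2 change 1.39, limma adjusted p = 0.132) but did without FORKO replicate 1 (adjusted p = 4.89e-04). Skeletal muscle markers, 10 in all, were dim throughout. Peripheral glia markers summed to 386.3 to 580.7 in FORKO and 281.3 to 415.1 in WT ovaries, with 3 of 9 tested and none passed (2 at an unadjusted p under 0.05 in limma). Ncam1 alone read 213.4 to 333.6 in FORKO and 107.2 to 191.1 in WT ovaries.

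The summed signal of oocyte markers was lower on all FORKO arrays. It was 624.5, 767.9 and 856.1 in FORKO replicates 1, 2 and 3, against 1503, 1277 and 1375 in WT replicates 1, 2 and 3. This WT order is also that of Insyn2b, Ankrd63 and Homer2 probe set 1424367_a_at, but not that of Homer2 probe set 1457671_at. It is not particular to oocyte markers. The WT sums of granulosa (23937, 18487 and 20697), neuron (391.0, 297.2 and 329.0) and surface epithelium markers (916.0, 817.3 and 844.7) had it as well. The other marker sums did not. Of 11 tested oocyte markers 4 fell (Zp2, Oosp1, Zar1 and Rfpl4) and 7 did not pass. Over all genes 0.839% passed as lower. An unadjusted p under 0.05 in limma was reached by 8 of the 11, beside 16.8% of all genes. It was reached by 4 of 6 theca and interstitial, 2 of 6 luteal, 4 of 7 smooth muscle and 8 of 10 surface epithelium markers. With the replicate block the same 4 oocyte markers passed again, and so did Kit, which is higher in FORKO (log2 change 1.49, limma adjusted p = 0.0685, and 0.0329 with the block). Without FORKO replicate 1 the added oocyte marker was Gdf9 (log2 change -1.31, limma adjusted p = 0.0859, and 0.0209 without that array). Theca and interstitial markers summed to 12600 to 14829 in FORKO and 17978 to 18891 in WT ovaries, and 1 of 6 fell (Fdx1), joined by Star with the block (limma adjusted p = 0.227, and 0.0418 with the block). Granulosa markers summed to 10288 in FORKO replicate 1, 22751 and 23194 in the other FORKO arrays, and 18487 to 23937 in WT ovaries. Of 13 tested granulosa markers 1 fell, Fshr, and 12 did not pass, with 6 of the 13 at an unadjusted p under 0.05 in limma. Nr5a2, a nuclear receptor, read 543.8 ± 296.4 in FORKO and 1741 ± 162.0 in WT ovaries (SD, n = 3 each; log2 change -1.87, limma adjusted p = 0.0547, 0.0421 with the block and 5.50e-04 without FORKO replicate 1). Nppc, the natriuretic peptide that holds oocytes in meiotic arrest, read 0.7, 17.5 and 12.0 in FORKO and 68.1, 39.4 and 32.0 in WT ovaries (log2 change -1.86, limma adjusted p = 0.0943, and 0.0364 without FORKO replicate 1). With the block 4 granulosa markers passed, Fshr and Nr5a2 lower and Amhr2 and Kitl higher in FORKO ovaries. Without FORKO replicate 1 it was also 4: Fshr, Nr5a2 and Nppc lower, and Esr2 higher. Surface epithelium markers summed to 1463 to 2506 in FORKO and 817.3 to 916.0 in WT ovaries, and macrophage and lymphocyte markers to 1332 to 3131 in FORKO and 1223 to 1661 in WT ovaries, both highest in FORKO replicate 1; 3 of 10 epithelial markers rose (Krt8, Krt18 and Gpm6a), while none of 5 immune markers passed (1 at an unadjusted p under 0.05 in limma). Smooth muscle markers summed to 1303 to 2934 in FORKO and 2448 to 2827 in WT ovaries, and luteal markers to 1633 to 5790 in FORKO and 2470 to 3238 in WT ovaries, both lowest in FORKO replicate 1, and 1 marker of each fell (Actg2 and Cdkn1b). With the block Tagln, of smooth muscle, passed as well (limma adjusted p = 0.272, and 0.0361 with the block), and without FORKO replicate 1 so did Cnn1, of smooth muscle, lower in FORKO, and the luteal marker Sfrp4, higher in FORKO (adjusted p = 0.0323 and 4.09e-05). Sfrp4 read 28.9, 3521.4 and 3294.9 in FORKO and 893.9, 581.4 and 844.4 in WT ovaries. It gave most of the luteal sum in FORKO replicates 2 and 3. Of the 6 tested luteal markers, 4 had a negative and 2 a positive log2 change, with a median of -0.46. The FORKO means of Fshr, Nppc, Cnn1 and Rfpl4 (8.05, 10.1, 16.1 and 20.1) were below the dim limit, so these markers were tested only because WT was high. The part of these cell types in the values of the 6 genes was not tested.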

How the data were processed

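Whole-ovary RNA of 3 FORKO and 3 WT samples was hybridised to 1 array each. The values deposited by the authors are MAS5 signals, a linear array intensity for each probe set, as the submitters' processing notes name them; their scaling target is not stated. They ran from 0 to 9781. Groups and replicate numbers come from the sample titles.

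Arrays were brought to a common trimmed mean (2% cut from both tails; multipliers 0.895 to 1.09) and log2-transformed after adding 5.73, the pooled 25th percentile. The 64 control probe sets and those with a mean scaled signal below the median of 20.4 were dropped, leaving 22506 for limma (version 3.58.1, under R 4.3.3; lmFit, then eBayes with intensity trend, two-sided, Benjamini-Hochberg at 0.05). With 3 against 3 arrays an exact permutation test cannot go below 0.1. On simulated data for this comparison (200 changed among 22506 probe sets, 10 runs), log2 changes of 1 were found in 29.1% of cases. Those of 2 were found in 80.7%, with 4.73% false calls. The simulated errors were independent and equally spread on all arrays. In the data FORKO replicate 1 stands apart and arrays of the same number share departures, so these rates need not apply to them. Figures were drawn with matplotlib 3.10.9.

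Symbols come from the platform annotation, and 34958 probe sets had 1 symbol. All 6 members matched the GRCm38.p6 gene table, used for names and chromosomes; promoter windows are RefSeq's on that build. A gene stands by its brightest probe set. Named are the 6 genes, Fshr, in each postsynaptic list up to 3 genes that passed with the largest change or else the 2 largest changes, and the 5 genes most correlated with each member; genes named beyond that were chosen after their values were seen. The members, lists and rules were chosen with earlier results of these data known.

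Replicate numbers are shared by both groups. Across probe sets, the departures of arrays 1, 2 and 3 from their group's mean correlated between groups (r = 0.195, 0.134 and 0.358, each above 0.1), so the numbers were taken as possible pairs, which the labels do not state. Printed values and p-values come from the fit without the block unless the block is named. Alternatives covered normalization, pseudocount, dim filter, intensity trend, a replicate block, the probe set standing for a gene and each array left out.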

Additional observations from a re-analysis of the deposited data

How the results depend on the processing

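Under all 16 alternatives the log2 change kept its sign for both Homer2 probe sets above the dim limit (-2.36 to -1.82 and -2.04 to -1.31). The same held for Insyn2b (-2.75 to -1.69), Gsg1l (-2.15 to -1.64), Ankrd63 (-2.63 to -1.84), Homer3 (-0.37 to -0.11) and Homer1 probe set 1437363_at (0.21 to 0.47). Homer1 probe set 1436387_at ran from -0.03 to 0.25. The dim filter, the intensity trend and the replicate block do not enter the log2 change, so those alternatives could not move it. Where groups do not overlap, leaving out an array cannot turn the sign. For the members that fell, the kept sign is therefore a description and not a test. Over all probe sets 372 passed, against 221 with no dim filter, 691 with the replicate block and 589 with spike-in scaling, an alternative added after seeing the data; under it the median log2 change over all features shifted by 0.16. The share of calls that were higher was 64.0%, against 84.0% with spike scaling and 50.6% with arrays scaled to the same median. Leaving out each array in turn gave 62 (WT replicate 2) to 864 calls (FORKO replicate 1); the counts were 143 without FORKO replicate 3, 112 without WT replicate 1 and 83 without WT replicate 3. Of the postsynaptic list genes 1 passed, as it did with the replicate block, against 2 with arrays scaled to the same median, 2 without the intensity trend, 0 with a mean signal of at least 50, where fewer genes are tested, and 0 to 3 with 1 array left out. Fshr kept its sign throughout; it missed the threshold without WT replicate 1 (-2.83, limma adjusted p = 0.0525) and WT replicate 3 (-2.71, 0.0598), within -3.17 to -2.46 when each array was left out in turn. Gabrb2 ran from -1.37 to 0.03 with 1 array left out, the positive value being that without FORKO replicate 1. The cause of these shifts was not tested. Signals near or below the dim limit, such as those of Gsg1l and Insyn2b in FORKO ovaries, limit how exactly a change can be sized.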
